A study of Mus musculus with 4 samples.

Results

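Cytosolic ribosomal protein genes encode the proteins of the cytoplasmic ribosome. They were taken as the protein-coding genes whose symbol is Rpl or Rps followed by a digit, together with Rplp0, Rplp1, Rplp2 and Rpsa, without the Rps6k kinases and without copies named Gm. This rule found 91 of the 21883 protein-coding genes in the RefSeq gene table of assembly GRCm38.p6, which is the build mm10. By name, 77 of them are the genes of the standard ribosome, here called core genes: 43 of the large subunit, 31 of the small subunit and 3 of the stalk. A further 12 are divergent or tissue-limited copies, and 2, Rps19bp1 and Rps23rg1, match the rule by symbol but are not ribosomal proteins by name. Chromatin immunoprecipitation and sequencing had been done for H3K4me3, trimethylation of histone H3 at lysine 4, and for H3K9me3, the same change at lysine 9, in peritoneal macrophages of C57BL/6 mice aged 8 weeks. The cells had been drawn into the peritoneum with thioglycollate broth, so they are elicited and not resident macrophages. In culture they had adhered and then received lipopolysaccharide (LPS), the bacterial outer membrane component that activates macrophages, or phosphate-buffered saline (PBS) for 24 h. The 4 groups were H3K4me3 with LPS, H3K4me3 with PBS, H3K9me3 with LPS and H3K9me3 with PBS, each with 1 library. The labels give neither the sex of the mice nor how many were pooled.

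The files are lists of peaks, each with its position and its number of sequence tags. Per the file headers, 26748289 tags (LPS) and 29681491 tags (PBS) remained after filtering for H3K4me3, and 28586946 and 27727997 for H3K9me3. Because each group had 1 library, LPS and PBS could not be tested against each other, and every difference given here is between libraries. Intervals are exact 95% Clopper-Pearson intervals and cover counting error only. As a check of the cells, 9 of 10 macrophage marker genes had H3K4me3 at a gene end in both lists, and the tenth, Spi1, was listed in LPS only. The counts in both lists were 1 of 5 for T cell, 2 of 5 for B cell, 1 of 6 for neutrophil and 1 of 6 for mesothelium and fibroblast markers. A further 4 of those 6 mesothelium and fibroblast genes were listed in PBS only, whereas Pdgfrb, listed in both, had 188 tags in LPS and 62 in PBS. Among neutrophil genes, LPS alone held peaks at Camp, with 56 tags, and at S100a8, with 21. PBS alone held one at Mmp8, with 19 tags. Csf3r had 240 tags in LPS and 250 in PBS, and S100a9 and Ngp were in neither list. The part of such cells in any difference below was not tested.

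Ribosomal protein genes are among the most strongly transcribed genes of a growing cell, and their products are needed in equal amounts. Most of them are short, many carry small nucleolar RNA (snoRNA) genes in their introns, and transcription begins at a cytosine followed by pyrimidines. That run of pyrimidines, the terminal oligopyrimidine (TOP) tract, becomes the first bases of the mRNA and places its translation under control of the mTOR pathway. H3K4me3 marks the promoters of active genes, mostly just downstream of the start, whereas H3K9me3 is best known from silent heterochromatin.

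The promoters shown first are those of 6 core genes that differ in how far the H3K4me3 peak reached upstream of the start. Each sequence, from RefSeq (GRCm38.p6), runs 5′ to 3′ on the coding strand over 80 bases before the annotated start and the first 20 bases from it. Capitals mark the pyrimidine tract at the start. They are Rpl28 at chr7:4792885-4792984 (plus strand), Rpl38 at chr11:114668500-114668599 (plus strand), Rps27 at chr3:90213629-90213728 (minus strand), Rpl14 at chr9:120571437-120571536 (plus strand), Rps18 at chr17:33955646-33955745 (minus strand) and Rps6 at chr4:86857348-86857447 (minus strand). In Rpl28, Rpl38 and Rps27 the upstream peak edge lay within 100 bp of the start in both libraries. In Rpl14 and Rps18 it lay there in LPS only, and in Rps6 it lay upstream in both.
Rpl28: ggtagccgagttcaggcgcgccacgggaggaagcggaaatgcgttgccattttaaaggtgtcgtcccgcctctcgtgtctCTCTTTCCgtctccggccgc
Rpl38: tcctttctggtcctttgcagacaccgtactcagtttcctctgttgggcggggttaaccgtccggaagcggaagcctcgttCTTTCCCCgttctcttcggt
Rps27: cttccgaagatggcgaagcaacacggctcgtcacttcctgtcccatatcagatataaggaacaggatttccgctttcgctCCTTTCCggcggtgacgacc
Rpl14: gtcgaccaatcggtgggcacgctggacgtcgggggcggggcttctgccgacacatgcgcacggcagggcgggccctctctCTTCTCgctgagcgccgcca
Rps18: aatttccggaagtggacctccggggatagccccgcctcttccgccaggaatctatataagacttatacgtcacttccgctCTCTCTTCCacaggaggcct
Rps6: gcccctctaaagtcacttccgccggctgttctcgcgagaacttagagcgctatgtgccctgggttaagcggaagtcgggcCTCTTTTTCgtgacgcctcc

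A promoter sequence was found for 57 of the 77 core genes, and motifs were searched on both strands over the whole 300 bases held per gene (250 before the start and 50 from it). A cytosine at the annotated start with at least 4 pyrimidines after it was present in 12 of the 57 (21.1%), against 2.17% of all 17491 promoters. When the tract could begin within 10 bases of the annotated start, the counts were 31 of 57 (54.4%) and 31.1%. The ETS-family core CCGGAAG was present in 24 of the 57 (42.1%) against 12.1% of all promoters. It lies in the stretch printed for Rpl38 and Rps18. The letters GGGCGG, bound by SP1 and related factors, were in 34 (59.6%) against 47.1%, and lie in the stretches printed for Rpl38 and Rpl14. TATAAA was in 5 (8.77%) against 13.1%, and AAGATGGCG, the YY1 motif seen in the Rps27 stretch, in 3 (5.26%) against 1.97%. These are matches of letters and were not tied to binding.

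The core genes are compact. Their median length was 3.17 kb (0.982 to 11.8 kb), against 17.2 kb over all protein-coding genes, and 30 of the 77 hold 59 annotated snoRNA genes. They lie on 19 chromosomes. Peaks of H3K4me3 covered a median of 50.1% of the core gene body in LPS and 51.7% in PBS. In the 3261 other genes of 1 to 10 kb with H3K4me3 in both lists, which are longer at a median of 5.20 kb, the medians were 25.7% and 27.9%. At least 90% of the body was under H3K4me3 in 11 of the 77 core genes in LPS and in 15 in PBS. Of those 3261 other genes, 191 were covered that far in LPS and 203 in PBS. The gene table also holds 309 pseudogenes with symbols of the same pattern, and a peak lay within 1 kb of 22 of them (7.12%) in each list. How reads that fit several copies were placed is not given in the sources used here, so counts of members with near-identical copies are uncertain.

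H3K4me3 was listed within 1 kb of a gene end in both libraries for 80 of the 91 members, 87.9%, against 60.1% of all protein-coding genes. All 31 small subunit genes and all 3 stalk genes were among them, and 40 of the 43 large subunit genes. No member was listed in LPS only, against 1.26% of all genes. Rpl10, a late-joining protein of the large subunit near its catalytic centre, was listed in PBS only, with 47 tags over 0.823 kb, against 3.14% of all genes. That peak lay inside the gene, 249 bp from the end away from its start, and neither list had one at its annotated start. Neither list named a peak for 10 members. Of these, 7 were divergent copies: Rpl10l, the autosomal copy of Rpl10 used in male germ cells, Rpl39l, another germ cell copy, Rpl32l, Rpl31-ps12, Rpl34-ps1, Rpl37rt and Rps27rt. The others were Rps23rg1, Rpl17 and Rpl22.

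Rpl22 and Rpl17 did carry H3K4me3, further inside the gene. The nearest peak to an outer end of Rpl22 lay 1381 bp (LPS) and 1314 bp (PBS) away, and for Rpl17 the distances were 1499 and 1526 bp. The members closest to the 1 kb limit on its inner side were Rps27l, at 846 and 661 bp, and Rpl38, at 741 and 722 bp. The internal peak of Rpl22 held 238 tags in LPS and 379 in PBS, a log2 ratio of -0.52 per filtered tag, and began 91 and 24 bp downstream of the annotated start. The internal peak of Rpl17 held 233 and 283 tags. Counted over the gene body and 1 kb on either side, 82 members had H3K4me3 in both lists, 76 of the 77 core genes among them. Rpl10 was the exception.

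Among the divergent copies, 5 of 12 had a peak at a gene end in both lists. Their log2 ratios there had a median of -0.73, against -0.36 over all promoters. At annotated starts the median was -0.54 over 4 copies, against -0.37 over all starts. Rpl36al, a near copy of Rpl36a, had 395 and 611 tags (LPS and PBS), the most of the 5. That H3K4me3 is shared with Mgat2, and its summits lay upstream of the Rpl36al start, at -400 bp (LPS) and -444 bp (PBS). Rpl22l1, the paralog of Rpl22, had only 55 and 102 tags over 0.616 and 0.874 kb. Rpl7l1 had 170 and 312 tags in a peak that it shares with 2310039H08Rik, and 100 and 169 at its own annotated start. The 194 and 299 tags assigned to Rpl3l, the copy used in heart and skeletal muscle, lie in a peak over Msrb1, and no H3K4me3 peak was listed at the start of Rpl3l itself. The copies known from germ cells or muscle therefore had no listed H3K4me3 at a start of their own.

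Tags of LPS and PBS were compared as a log2 ratio per filtered tag, so that negative values mean fewer in LPS. Over the 80 members with a peak in both lists the median was -0.37, with quartiles of -0.60 and -0.25. Over all 13147 genes with a peak in both lists it was -0.36, with quartiles of -0.53 and -0.22. Per kilobase of peak, both medians were -0.21. Thus 36 members lay above the median of all promoters and 44 below it, and 70 of the 80 lay within 0.5 of it on the log2 scale. The median was -0.37 for large subunit genes, -0.40 for small subunit genes and -0.25 for the 3 stalk genes. Mitochondrial ribosomal protein genes, which serve the organelle's own ribosome, had a median of -0.49 (71 genes), and proteasome subunit genes one of -0.33 (36 genes).

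**Figure D1:**
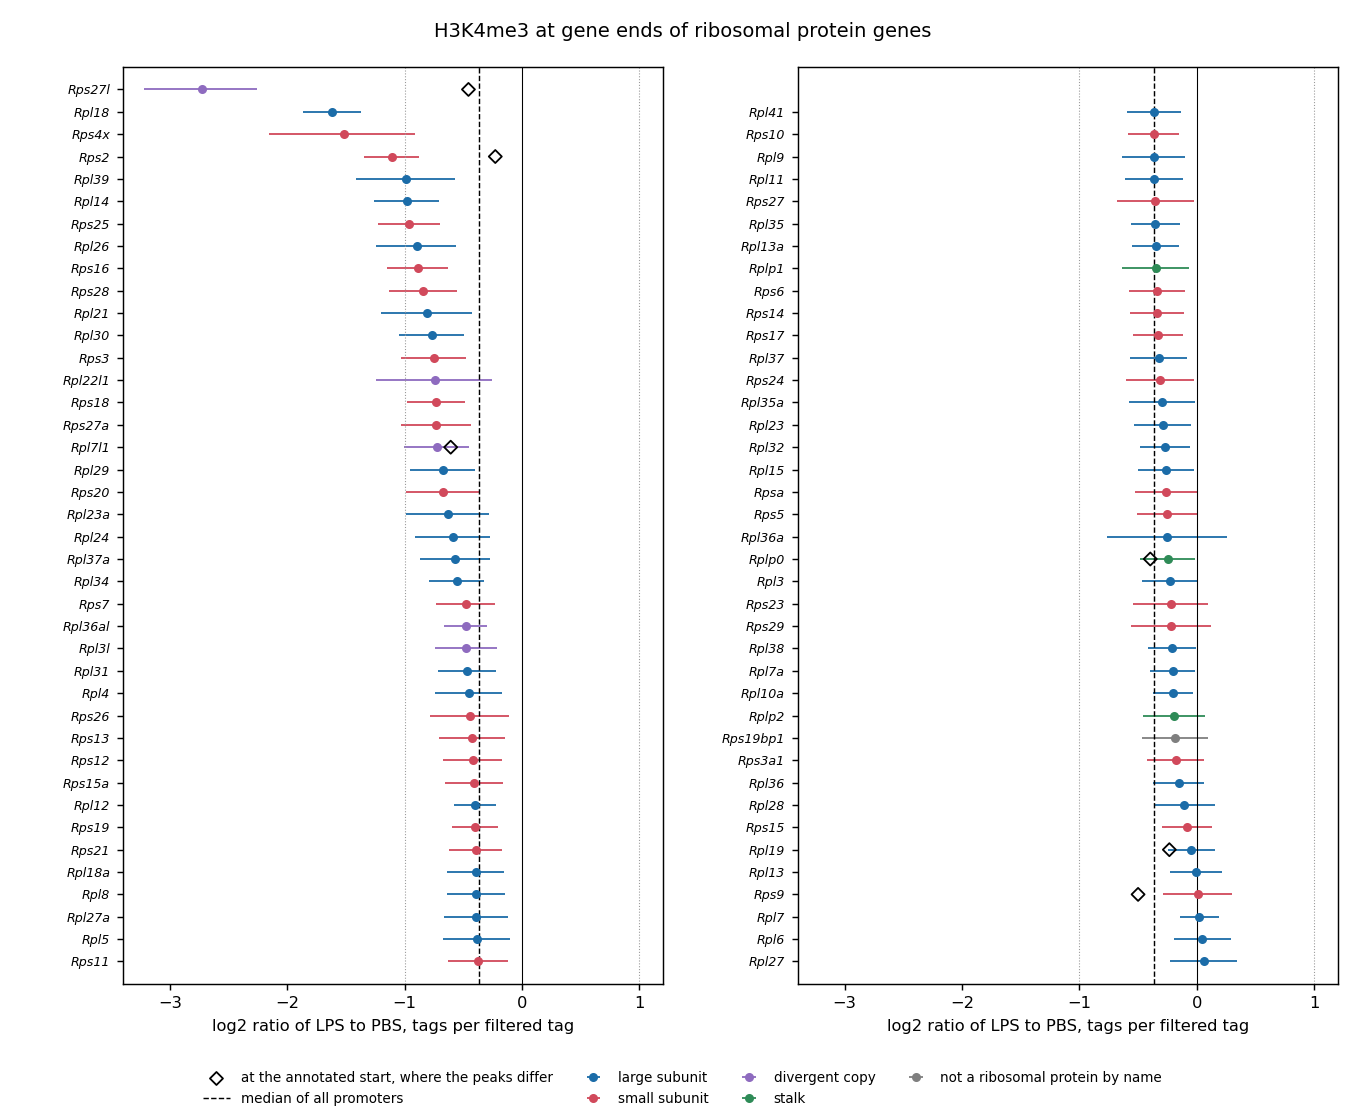
Log2 ratio of LPS to PBS H3K4me3 tags per filtered tag at the gene end for 79 of the 80 members with a peak in both lists, sorted and continued in the right panel. Bars are exact 95% intervals of counting error and open diamonds give the value at the annotated start where its peaks differ. Most members lie near the dashed median of all promoters (-0.36), and the diamonds of Rps27l and Rps2 lie far to the right of their gene-end values.

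The counting interval of single members was wide against these differences. It lay wholly below 0 for 61 of the 80 members (76.2%) and held 0 for the other 19, where 68.3% of all promoters lay below and 2.48% above. Set against the median of all promoters, it lay below for 17 members (21.2%), above for 9 (11.2%) and held that median for 54. Of all promoters, 13.3% lay below and 13.4% above. Promoters with 100 or more tags over the libraries together were counted when they differed at least 2-fold. There were 4 such members of 80 with fewer tags in LPS, where 3.65% of all promoters were that low, and 0 with more, where 0.370% were. The members' share is thus close to the background. Per kilobase of peak, 1 member was 2-fold lower (Rps27l), against 0.0866% of all promoters, and 0 higher, against 0.00%. Over merged regions 2 were lower (Rpl18 and Rps4x), against 2.97%, and 0 higher, against 0.268%. Relative to the median of all promoters 3 were lower (Rps27l, Rpl18 and Rps4x), against 1.19%, and 0 higher, against 0.882%.

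For Rps27l and Rps2, among the 4 members past 2-fold, the value turned on which peaks the gene-end rule took. Rps27l, a p53-responsive copy of Rps27, had 43 tags in LPS and 315 in PBS at its outer end, a log2 ratio of -2.72 (-3.22 to -2.26). The LPS list cut the same stretch into peaks of 43 and 164 tags where PBS had a single one of 315. With both counted at the annotated start, the LPS sum was 207 and the ratio -0.46.

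Rps2, a small subunit protein at the mRNA entry channel, had 217 and 519 tags, a log2 ratio of -1.11. A PBS peak of 261 tags shared with Ndufb10 entered that sum, and its LPS counterpart of 137 tags lay too far off to be counted. At the annotated start Rps2 had 308 and 400 tags, or -0.23. Per kilobase of peak, the gene-end ratio was 0.11, so that its sign turned.

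Rpl18, of the large subunit, had an LPS peak of 175 tags, 1.38 kb long, and a PBS peak of 595 tags, 4.09 kb long, with a log2 ratio of -1.62 (-1.87 to -1.37) but only -0.05 per kilobase. The peak is shared with Sphk2. In the PBS list that peak and a second one of 273 tags lie within 1 kb of the annotated start, 868 tags in all, and the LPS list names none there. The larger PBS sum of Rpl18 thus came with a longer covered stretch, and no other member was listed at an annotated start in PBS alone.

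Within 1 kb of annotated starts, 60 of the 70 members with a known start had H3K4me3 in both lists (62.2% of all starts did). Rps4x, the X-linked small subunit gene, was the only one of these 60 at least 2-fold lower there, where 3.58% of all starts were, and 0 were higher, where 0.266% were. X-linked genes as a whole had a lower gene-end ratio, with a median of -0.52 and 11.2% at least 2-fold lower, against -0.36 and 3.45% on autosomes. Rps4x had 30 tags in LPS (0.599 kb) and 95 in PBS (1.09 kb), a log2 ratio of -1.51 (-2.16 to -0.91) and of -0.65 per kilobase. Next in order came Rpl39, at the wall of the exit tunnel, with 71 and 156 tags (-0.99), and Rpl14, with 160 and 351 (-0.98). Rps25 had 172 and 371 tags (-0.96) in a peak shared with Trappc4, and Rpl26, a binder of p53 mRNA, had 108 and 223 (-0.90). Their values per kilobase were -0.52 for Rpl39, -0.25 for Rpl14, -0.06 for Rps25 and 0.07 for Rpl26. Of these, Rpl39 lay furthest below the per-kilobase median of all promoters (-0.21). No counting interval was worked out for values per kilobase.

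Towards the other end of the order, Rpl27, a large subunit gene, held 195 and 208 tags (LPS and PBS), with a log2 ratio of 0.06 (-0.23 to 0.35). Its LPS peak covered 1.76 kb against 1.25 kb in PBS, and per kilobase the ratio was -0.43. Rpl6 had 273 and 293 tags (0.05), and Rpl7 had 562 and 615 (0.02). The Rpl7 peaks covered 3.63 and 2.24 kb, and per kilobase the ratio was -0.68. They are shared with Rdh10, and the PBS peak lay wholly outside Rpl7, 151 bp from its end. No annotated start was held for Rpl7, so these values may not be those of its own promoter. Rpl13 had 324 and 362 tags (-0.01), and Rps15, near the decoding site, had 332 and 390 (-0.08). The intervals of these 5 all held 0. Rps9 and Rpl19 also ranked high, at 0.01 and -0.05, but on peaks other than those at their starts, where they had 107 against 168 tags (-0.50) and 190 against 248 tags (-0.23).

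Members with known roles outside the ribosome or in disease, chosen whatever their values, were read next, apart from Rps27l, Rpl26, Rpl22l1 and Rpl7l1 above. Those had low ratios at gene ends. At annotated starts, only the counting interval of Rpl26 lay below the median of all promoters, and those of Rps27l, Rpl22l1 and Rpl7l1 held it. The stalk proteins recruit translation factors, and Rplp1 had 177 and 250 tags (-0.35), Rplp2 212 and 269 (-0.19). Rplp0 had 141 and 206 tags at its annotated start (-0.40), whereas the gene-end rule took a larger peak shared with Gcn1 (269 and 354). Rpl5 and Rpl11, which hold Mdm2 when ribosome assembly fails, had 172 and 249 tags (-0.38) and 230 and 329 (-0.37). Rpl23, another Mdm2 binder, had 249 and 338 (-0.29).

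Rps6, the substrate of S6 kinases, had 253 and 355 tags (-0.34), and Rpl13a, of the interferon-gamma-activated translation inhibitor complex, had 352 and 498 (-0.35). Rps3, also an NF-kB partner, had 170 and 317 (-0.75). Rps19 and Rps14, whose loss causes anaemia, had 357 and 522 (-0.40) and 264 and 370 (-0.34). Rpsa, also known as a laminin receptor, had 212 and 282 (-0.26). For Rps3 the interval of -1.03 to -0.48 lay below the median of all promoters, and for the other members of this group, beside those given above, it held that median. The Rps3 peaks covered 1.77 kb in LPS and 2.30 kb in PBS. Per kilobase its ratio was -0.37, where the median of all promoters was -0.21.

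**Figure D2:**
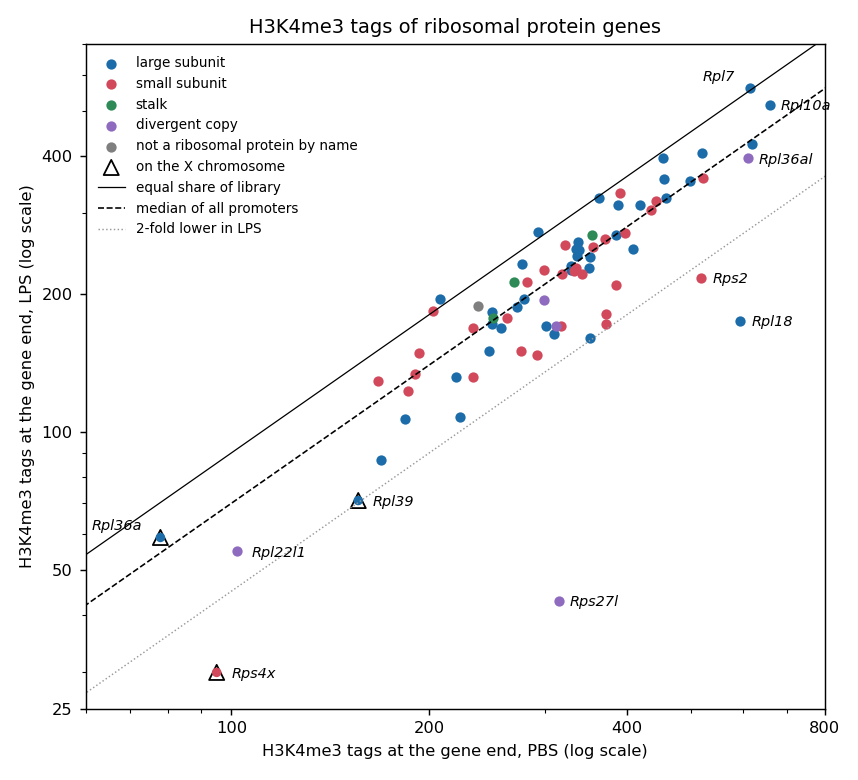
H3K4me3 tags at the gene end in PBS (horizontal) and LPS (vertical), both on log scales, for 79 of the 80 members with a peak in both lists. The solid line marks an equal share of each library, the dashed line the median of all promoters (-0.36 on the log2 scale) and the dotted line 2-fold fewer in LPS. The X-linked members, ringed by triangles, lie at the lower left with 30 to 71 tags in LPS.

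Of the 5 members with the fewest PBS tags, 4 lie on the X chromosome. Rpl10, Rpl36a, Rps4x and Rpl39 ranked 1, 2, 3 and 5 from the fewest in PBS, with 47, 78, 95 and 156 tags. In LPS, Rps4x had 30, Rpl36a 59 and Rpl39 71, and Rpl10 was not listed. The median in PBS was 86.5 tags for these 4 members against 329 for the 77 on autosomes. Over all protein-coding genes with a PBS peak it was 134.5 on the X chromosome and 286 on autosomes. In LPS the medians were 59 (3 members) against 221 for members and 88 against 201 for all genes. X-linked genes as a whole thus also had fewer tags. Whether the mice were male or female is not in the labels, and the part of X dosage or of read placement was not tested.

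Counted at gene ends, peaks of the members were somewhat wider than at other promoters, with like tags per kilobase. The median width at gene ends was 1.85 kb in LPS and 2.23 kb in PBS, against 1.61 and 1.83 kb over all promoters. In PBS, 50 of the 80 members (62.5%, 51.0 to 73.1) had at least 2 kb of peak, against 42.6% of all promoters. In LPS it was 34 of 80 (42.5%, 31.5 to 54.1) against 32.5%, a share that the interval holds. Among members that shared no peak, the PBS share was 54.5% (40.6 to 68.0), whose interval also holds that of all promoters. At annotated starts the members' share was 55.0% (41.6 to 67.9) in PBS, against 43.0% of all starts. In LPS it was 38.3% (26.1 to 51.8) against 32.1%, and both intervals hold the share of all starts. Tags per kilobase in PBS had a median of 146.6 in members and 152.6 in all promoters. The widest was Rpl10a, with 4.96 kb in LPS and 4.11 kb in PBS (516 and 659 tags) in a peak that it shares with Fance and Tead3. Rpl13a had 3.71 and 4.56 kb, Rpl12 3.52 and 3.56 kb, Rpl35 3.09 and 3.64 kb, and Rpl7a 3.07 and 2.94 kb. Of these, Rpl12 shares its peak with Lrsam1 and Rpl7a with Med22. Among the narrowest were Rpl22l1, Rps4x, Rps29 (1.08 and 0.806 kb), Rpl36a (0.921 and 1.01 kb) and Rps24 (1.14 and 1.08 kb). In all, 25 members shared a peak with another protein-coding gene, and these had a median PBS width of 2.41 kb, against 2.04 kb for the 55 others with a peak in both lists.

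The members' H3K4me3 lay mostly downstream of the start. Peaks within 1 kb of the annotated start, here called start peaks, were joined for each gene, and in LPS those of 35 of 55 core genes reached no more than 100 bp upstream, 63.6% (49.6 to 76.2). In 33 of these 35 the upstream edge lay within 100 bp of the start on either side. In Rpl39 it lay 576 bp and in Rpl27 169 bp downstream, and in 19 of the 55 genes it lay downstream at any distance. Over the 10989 other genes with such a peak, the share was 19.9%. In PBS, the count was 24 of 56 core genes, 42.9% (29.7 to 56.8), against 14.5% of 11263 other genes. The intervals of core and other genes did not meet in either list. In other genes of 1 to 10 kb, which at a median of 5.30 kb in LPS are longer than these core genes (3.27 kb), the shares were 22.1% and 17.4%. They were 25.4% and 19.1% in mitochondrial ribosomal protein genes and 33.3% and 40.6% in proteasome subunit genes. The proteasome intervals (17.3 to 52.8 in LPS and 23.7 to 59.4 in PBS) overlapped those of the core genes in both lists.

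**Figure D3:**
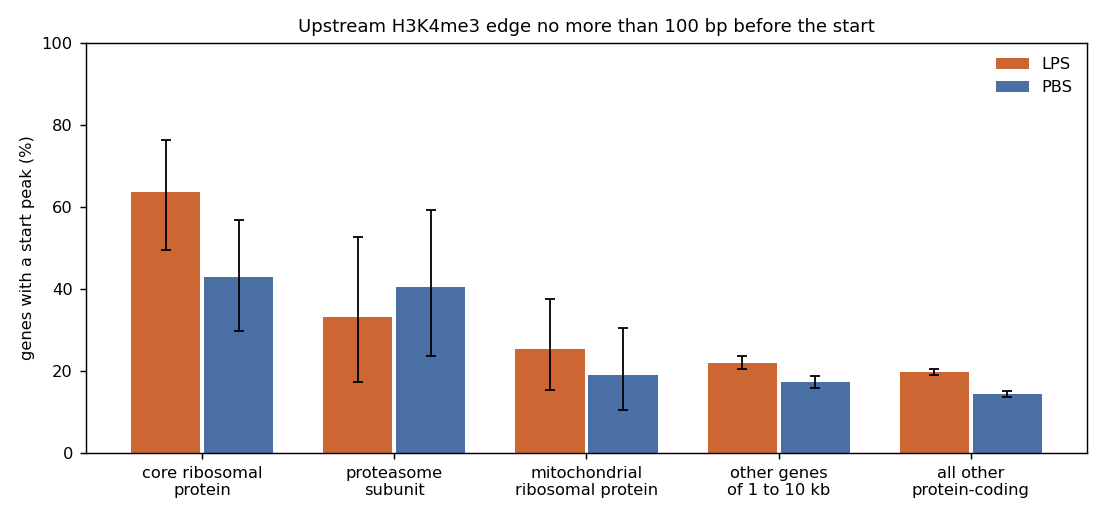
Share of genes, in percent of those with an H3K4me3 peak within 1 kb of the annotated start, whose peaks reached no more than 100 bp upstream, for 5 gene sets in LPS and PBS. Bars start at 0 and lines are exact 95% intervals of counting error. Core ribosomal protein genes stand at 63.6% and 42.9%, all other protein-coding genes at 19.9% and 14.5%.

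Counted from the start, with negative values upstream, the median upstream edge of core genes was -24 bp (LPS) and -195 bp (PBS). In other genes it was -506 and -590 bp. Downstream the order was the opposite: the median edge lay 1681 and 1686 bp after the start in core genes, against 1054 and 1164 bp in others. The summit lay downstream of the start in 52 of 55 core genes in LPS (94.5%) and 51 of 56 in PBS (91.1%), against 81.6% and 81.1% of other genes. Its median distance was 306 bp in LPS and 277.5 bp in PBS. Where no other gene shared the peak, the edge lay no more than 100 bp upstream in 28 of 38 core genes in LPS and 19 of 38 in PBS. Where one did, the counts were 7 of 17 and 5 of 18. Sharing went with either pattern: at Rpl4 (shared with Zwilch) and Rpl7a (Med22) H3K4me3 lay upstream in both lists, and at Rpl9 (Lias) and Rpl41 (Zc3h10) it did not in either. The Rpl41 summits, though, lay 1755 bp (LPS) and 1551 bp (PBS) after the start, past the far end of this gene of 1059 bp.

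**Figure D4:**
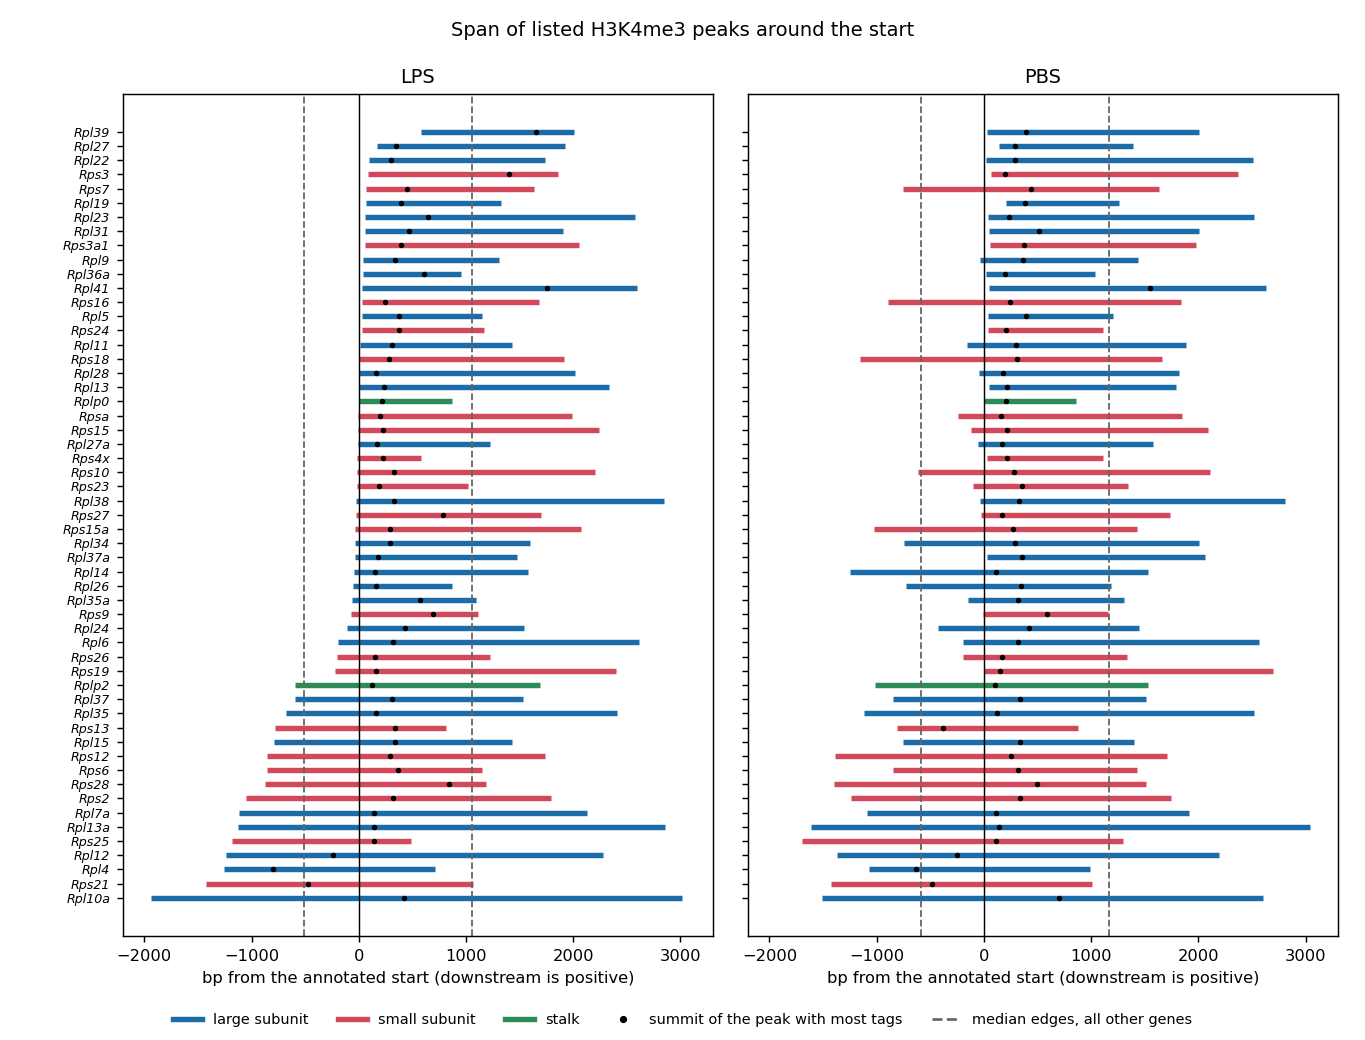
Span of H3K4me3 peaks around the annotated start (0) for the 55 core genes with a peak there in both lists, LPS left and PBS right, in bp with downstream positive and genes in the same order. Lines join the outermost edges of all peaks over the start window, dots mark the summit of the peak with most tags, and dashed lines are the median edges of all other genes (-506 and 1054 bp in LPS, -590 and 1164 bp in PBS). In most core genes the LPS span begins close to 0, and in several it begins further upstream in PBS.

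Of the 55 core genes with a start peak in both lists, 23 (41.8%) reached no more than 100 bp upstream in both, and 10.6% of other genes did. Rpl28 is an example, with edges at 3 bp in LPS and -49 bp in PBS. In Rpl38, known for its part in translating Hox mRNAs, the edges lay at -21 and -40 bp, and in Rps27 at -24 and -31 bp. A further 12 (21.8%, 11.8 to 35.0) did so in LPS only, against 8.89% of other genes. Just 1, Rps19, did so in PBS only, against 3.18%, and 19 reached further upstream in both, against 77.3%. In other genes too this was thus more often seen in LPS alone than in PBS alone.

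In 5 of these 12 genes the PBS list had a separate second peak upstream that the LPS list did not name, so leaving that peak out must raise their log2 ratios. The values are given to show its size. At Rpl14 the edge lay at -42 bp in LPS and -1250 bp in PBS, and the downstream peak alone held 160 and 237 tags, a log2 ratio of -0.42 in place of -0.98. The same step took Rpl26 from -0.90 to -0.49 and Rps16 from -0.89 to -0.51. It took Rps18 from -0.73 to -0.16, with 209 tags in LPS and 259 in PBS downstream, and Rps7 from -0.48 to -0.11. Elsewhere the same step also lowered ratios, as at Rpl4, from -0.45 to -0.62. At Rps25 it gave -1.96 in place of -0.96, but there it compared unlike stretches. The LPS list had 2 peaks of 86 tags each and lost the upstream one, leaving 0.546 kb. The single PBS peak of 371 tags was kept whole, upstream part included, over 2.995 kb. The LPS library also had fewer filtered tags, and the part of depth in these edges was not tested.

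H3K9me3 over gene bodies was sparse. The LPS list had a peak over 13 of the 91 members, 14.3% (7.83 to 23.2), and the PBS list over 8, 8.79% (3.87 to 16.6). Over all protein-coding genes, which are longer, the shares were 26.6% and 24.5%. Over other genes of 1 to 10 kb they were 12.5% and 9.56%, inside the members' intervals. Over those of them with H3K4me3 in both lists, the shares were 20.2% and 14.9%, above those of the members but also inside their intervals. At that length, mitochondrial ribosomal protein genes had 1.89% in each list, and proteasome subunit genes 16.7% and 5.56%. Both lists named a peak in Rpl10a, Rpl17, Rpl19, Rpl32 and Rplp0. The members with a peak in the LPS list alone included Rpl27a, Rpl34, Rpl36, Rpl3l, Rps20, Rps6 and Rps7, and those in the PBS list alone were Rpl11, Rpl35 and Rps2. The intervals of the LPS and PBS shares overlapped.

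**Figure D5:**
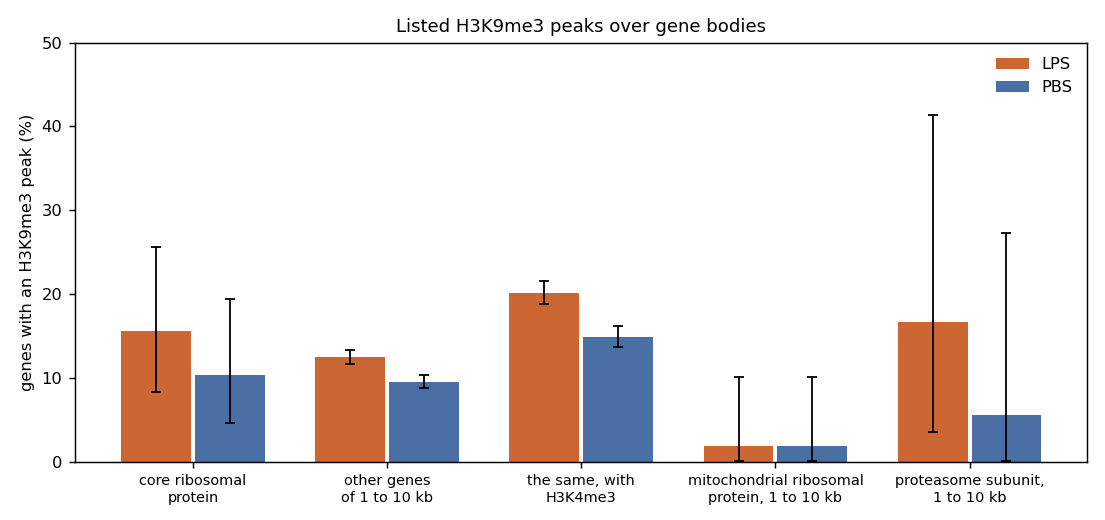
Share of genes, in percent, with a listed H3K9me3 peak over the gene body in LPS and PBS, for the 77 core genes and 4 sets of genes of 1 to 10 kb. Bars start at 0 and lines are exact 95% intervals of counting error. The interval of core genes (8.32 to 25.6% in LPS) holds the share of other genes of that length, 12.5%, and of those with H3K4me3, 20.2%.

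These peaks held few tags, as most H3K9me3 peaks of these lists did, and nearly all lay on H3K4me3 peaks. They held 15 to 37 tags in LPS (median 20) and 13 to 47 in PBS (median 19.5). Over other genes of 1 to 10 kb the medians were 25 and 21, and over the whole lists 17 and 16. The strongest by the authors' score was Rpl17 in LPS, with 37 tags over 420 bp and a score of 167.41. A score of 100 or more was reached by that peak alone in LPS, and in PBS by Rpl10a (137.03, 47 tags), Rpl11 (111.84, 27 tags) and Rpl17 (104.13, 25 tags). The share of other genes with a peak of that score was not counted, so these counts have no background beside them. Of the LPS peaks 12 of 13 lay inside an H3K4me3 peak of the same treatment, and of the PBS peaks 8 of 8. Among peaks over other genes of 1 to 10 kb, 79.1% and 73.1% did.

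The exception was Rpl3l, whose H3K9me3 peak of 21 tags lay 576 bp downstream of its start, where no H3K4me3 was listed. At Rplp0 the H3K9me3 summits lay 255 bp (LPS) and 154 bp (PBS) downstream of the start, 38 and 52 bp from the H3K4me3 summit. At Rps6, where 22 tags were listed in LPS only, the distance to the H3K4me3 summit was 53 bp, and at Rps2, with 16 tags in PBS only, it was 3 bp. No control library entered the peak calls, per the file headers, so H3K9me3 and a background signal at open promoters cannot be told apart here. Members with an H3K9me3 peak had a median H3K4me3 log2 ratio of -0.35 (15 genes) and those without one of -0.38 (65 genes).

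Genes outside the symbol rule that belong to the same machinery were read in the same way. Rack1, on the small subunit head, had 298 and 386 H3K4me3 tags. Fau, the ubiquitin-like fusion of a small subunit protein, was listed in PBS only, with 208 tags. Of 16 other genes of TOP mRNAs, mostly elongation and initiation factors, all were listed in both, with a median of -0.36, and 1 was 2-fold lower (Eef1g, 189 and 440 tags, but 0.17 per kilobase on the log2 scale), where 3.65% of all promoters were. Of 26 ribosome assembly genes 24 were listed in both, with a median of -0.43, and 2 were 2-fold lower: Polr1a, the largest subunit of RNA polymerase I (35 and 156 tags, -2.01, and -0.57 per kilobase), and Dkc1, the snoRNA-guided pseudouridine synthase (45 and 100 tags, and -0.30 per kilobase). Of 16 regulators of ribosomal protein synthesis 15 were listed in both, with a median of -0.30 and none past 2-fold. Myc, which drives many of these genes, had 647 and 1033 tags (-0.52).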

How the data were processed

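Peak lists of 4 ChIP-seq libraries, 1 per mark and treatment, were used. Bowtie 0.12.8, MACS 1.4.2, CASAVA 1.4, DiffBind and the build mm10 are named in the submitters' processing notes. Each library was called on its own without a control, at a p-value threshold of 1e-05, per the file headers. The deposited lists give tag counts per peak, the authors' score, minus 10 times the log10 of the p-value, and a fold enrichment, the caller's ratio of peak to background, which was not compared between libraries. A promoter that a list leaves out was under that threshold and may still carry the mark.

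Peaks within 1 kb of either gene end were summed, and of the gene's ends that with the larger sum (LPS plus PBS) was used. Annotated starts came from the RefSeq promoter table (GRCm38.p6), which holds 70 of the 91 members. Tags were scaled by filtered totals, and per covered kb as an alternative. H3K9me3 peaks were counted where they overlapped a gene body by at least 1 bp. Members at least 2-fold apart needed 100 tags in both libraries together. The members, gene lists and rules were chosen with earlier results of these data known. Named members were the 8 highest and 8 lowest by ratio, those listed in 1 or no list, those with H3K9me3, the 5 widest and 5 narrowest, and members chosen by role. Other examples were chosen after their values were seen, as were the values at annotated starts, those of downstream peaks alone, and the tract within 10 bases of the start. Rps4l, also on the list of roles, was not in the gene table. A few values are not reported here. Scripts used Python 3.11.15, pandas 2.3.3, scipy 1.17.1 and bedtools 2.31.1 and were tested on simulated data.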

Additional observations from a re-analysis of the deposited data

How the results depend on the processing

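The number of members with H3K4me3 in each list and the 0 members 2-fold higher kept their side of every threshold tried. The median log2 ratio of -0.37 became -0.0068 relative to all promoters. The 4 members 2-fold lower became 1 per covered kb, 2 over merged regions, 1 at annotated starts and 6 with a window of 2.5 kb. The median width in LPS was 2.315 kb over merged regions (1.85 kb as listed), and in PBS 2.093 kb among peaks with a score of 100 or more (2.23 kb). With that score, H3K9me3 lay over 1 member in LPS and 3 in PBS (13 and 8), and the share of other genes was not counted. The ratio of Rps2 turned to 0.11 per covered kb. Of 45 named members with a ratio, 23 others moved per covered kb by more than the size either way of their own counting interval. Over all 80 members with a ratio, that size had a median of 0.25. Scaling by total in place of filtered tags shifts every ratio by 0.10. Leaving out a replicate could not be done, as each group had 1 library. No paired analysis was possible because there were no replicates to pair.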
